A study of Arabidopsis thaliana with 24 samples.

Results

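The transcripts described here are 150 abundant probe sets of *Arabidopsis thaliana* seed whose wild-type level varied least between dry seed and the first day of germination in the light. They were chosen from 22746 probe sets on the array that are not controls. A probe set first had to reach a mean intensity of 1000 in each of the 4 wild-type groups, which 746 did. These 746 were then ranked by the range (highest minus lowest) of the 4 wild-type group means of log2(intensity + 16), and the 150 with the smallest range are the members. The other 596 abundant probe sets serve as the comparison. Each probe set reports 1 transcript or several very similar ones, and its intensity is the brightness of its spots on a linear scale, so levels of different probe sets are not compared.

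The arrays were single-colour Affymetrix arrays of whole seed, 24 in all, with 3 for each of 8 groups that cross 2 genotypes and 4 stages. The genotypes were wild type (WT), which is Col-0, and *Attim17-1* (tim17-1) in the Col-0 background, whose name refers to TIM17, part of the machinery that imports proteins through the inner membrane of mitochondria. Sampling began with dry seed (0 h) and continued after 48 h of stratification, moist chilling in darkness at 4 °C (48 h S). Stratified seed then went into continuous light at 22 °C and was sampled 6 h into it (6 h SL) and again 24 h into it (24 h SL). The labels put dry seed at 15 days of ripening in 1 place and at 14 days after collection in another. They describe WT dry seed as newly harvested and tim17-1 dry seed only as dry, and the source description of WT at 6 h SL gives stratification, where that of tim17-1 gives germination. Nothing in the labels says that the 3 arrays of a group came from separate seed lots, so the p-values rest on array-to-array spread that may be purely technical. What kind of lesion the *Attim17-1* allele carries was not stated in the labels.

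A dry Arabidopsis seed holds stored transcripts from its maturation on the mother plant. When it takes up water, many of these are degraded while transcripts for translation, cell wall loosening and reserve use accumulate, and chilling followed by light removes dormancy and lets the root emerge. Against this turnover, transcripts of respiration, protein sorting, proton pumping, messenger RNA handling and protein modification serve functions that cells need at each stage, and genes with little variation are commonly used as references for quantitative PCR.

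How the deposited values were scaled between arrays is not stated, and some directions below depend on it. The upper quartile of the deposited intensities lay between 234 and 258 on the 24 arrays, whereas the 18 hybridisation spikes, control transcripts added in fixed amounts, had a median change from WT 0 h of -0.65 log2 units at 48 h S, -0.89 at 6 h SL and -1.09 at 24 h SL in WT, and of -0.70, -0.91 and -1.12 in tim17-1. The 27 labelling spikes, another set of control probe sets, had median changes from WT 0 h of 0.76, 0.08 and -1.05 at these stages in WT. In tim17-1 these were 0.64, 0.07 and -1.09. At 48 h S the 2 kinds of spike thus moved in opposite directions, and the labelling spikes were not used for scaling. Replicate arrays of the members differed little, with a standard deviation of 0.08 to 0.12 log2 units in the 8 groups. For the labelled seed tissue, 6 of 12 listed seed reserve and maturation markers were measured, and their summed intensity was 144343 to 153945 in WT and 140331 to 143822 in tim17-1 at 0 h, and 11943 to 16266 and 17975 to 19048 at 24 h SL. The 2 measured seed coat markers of 4 summed to 9.83 to 15.2 over all arrays. The 2 measured seedling leaf markers of 4 summed to 1196 to 1390 at 0 h over both genotypes, 109 to 137 at 48 h S, 269.6 to 296 at 6 h SL and 1630 to 2306 at 24 h SL. The 3 pollen markers summed to 348 to 388 in WT 0 h, 40.3 to 144 in tim17-1 0 h and 12.6 to 13.9 in all other groups. No marker is a member, and whether tissue make-up has a part in the results below was not tested. The 3′ minus 5′ signal of the ubiquitin control transcript averaged -0.21 log2 units in WT and -0.34 in tim17-1 at 0 h, and 0.12 and 0.19 at 48 h S. That of the actin control transcript went from 1.22 at 0 h to 1.58 at 24 h SL in WT and from 1.11 to 1.63 in tim17-1, where it was 1.32 at 6 h SL. The part of RNA quality in the changes between any stages was not tested either. In whole seed, fewer cells of a type and less RNA per cell cannot be told apart.

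Of the 150 members, 57 had 1 gene in the annotation, of which 16 had a symbol and 41 only a locus code. Another 7 matched several genes and 86 were not listed, so the account by gene covers 57 of 150. Among these 57, 6 are genes of the plastid genome. Probe sets marked by Affymetrix as matching several transcripts made up 6.67% of the members, 10.4% of the other abundant probe sets and 4.66% of all probe sets.

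In WT, where the members were chosen, their range over the 4 stages ran from 0.15 to 0.72 log2 units with a median of 0.50, so that the highest stage was at most 1.65-fold above the lowest. The other abundant probe sets had a median range of 1.63 and a highest range of 5.03. These ranges describe the choice and were not tested. The smallest range among members with 1 gene belonged to *AT1G27530*, which encodes the conjugating enzyme of the ubiquitin-like modifier UFM1. Its WT intensities were 2839, 3069.9 and 2918 at 0 h, 2647, 2746 and 2587 at 48 h S, 2711, 3067 and 3126 at 6 h SL, and 2505, 2521 and 2811 at 24 h SL. All 4 stages overlapped with at least 1 other, and the range of the means was 0.18. *SDRB*, a short-chain dehydrogenase-reductase of peroxisomes, followed with a range of 0.23 and WT intensities of 1335, 1322 and 1371 at 0 h, 1235, 1241 and 1127 at 48 h S, 1007, 1235 and 1199 at 6 h SL, and 1188, 1271 and 1102 at 24 h SL, highest in dry seed. The next were *AT5G02240*, an NAD(P)-binding Rossmann-fold protein, at 0.25, *ATAB2*, which supports translation of photosystem transcripts in chloroplasts, at 0.25, and *AT5G55290*, subunit e of the vacuolar proton-pumping ATPase, at 0.28. A small WT range did not mean a level transcript in tim17-1. There *ATAB2* fell from 0 h to 48 h S and again to 6 h SL, then rose to 24 h SL (limma, adjusted p under 0.05 each, deposited values).

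The limit of the choice is a point in a continuous distribution. Just inside it lay *AT2G14910* (0.724), *AT2G14880* (0.721) and the translation initiation factor eIF1A family gene *AT2G04520* (0.710). Just outside it lay the alanyl-tRNA synthetase gene *ALATS* (0.724), *AT4G31130* (0.739) and the RNA polymerase subunit gene *NRPB6B* (0.746). Members at this limit were not level in WT. *AT2G04520*, an example, read 9373, 9052 and 9218 at 0 h, 9547, 9960.5 and 9175 at 48 h S, 7939, 7815 and 8348 at 6 h SL, and 6018, 5895 and 5598 at 24 h SL, with all 24 h SL arrays below every other array of the genotype.

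**Figure D1:**
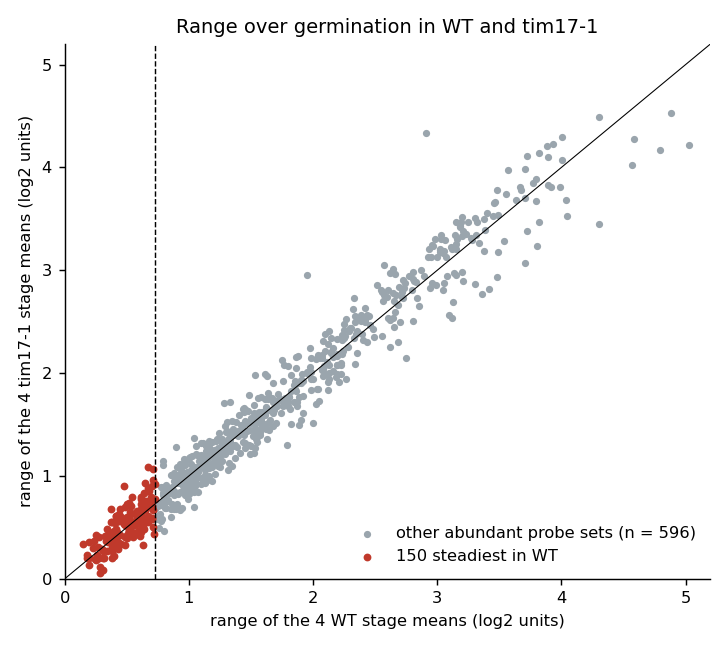
Range of the 4 stage means of log2(intensity + 16) in WT (horizontal axis) against tim17-1 (vertical axis) for the 746 abundant probe sets, with the 150 members in red, a dashed line at the WT limit of 0.72 and a line of equal ranges. The members lie at tim17-1 ranges of 0.06 to 1.09, and 126 of the 150 lie below the WT limit.

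The tim17-1 arrays took no part in the choice, and the members varied little there too. Their tim17-1 range ran from 0.06 to 1.09 log2 units with a median of 0.52 and quartiles of 0.39 and 0.65, close to the WT median of 0.50. Of the 150 members, 126 (84%) stayed within the WT limit of 0.72 in tim17-1, against 21 of the other 596 abundant probe sets (3.52%), whose median tim17-1 range was 1.64. A range over 1 log2 unit was found in 2 members, in 504 of the 596 and in 10122 of all 22746 probe sets. The rule applied to the tim17-1 arrays in place of the WT arrays found 757 abundant probe sets, and its own 150 shared 126 with the members (84% of each list). The stage of the highest mean was the same in both genotypes for 120 of 150 members (80%), and the stage of the lowest mean for 117 (78%), against 533 (89.4%) and 558 (93.6%) of the other 596. The plot of the ranges shows the members as a compact group in the lower left corner, below nearly all other abundant probe sets in both genotypes. In 4 members a tim17-1 group mean lay below the intensity of 1000 that WT had to reach, with a lowest group mean of 781.

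A small range is not the same as no change. An F test over the 3 steps between tim17-1 stages (limma, Benjamini-Hochberg adjusted p under 0.05 over all 22746 probe sets) called 141 of 150 members (94%), where it called 86.4% of all probe sets and 596 of the 596 other abundant ones. The members thus had smaller changes than the other abundant transcripts, but nearly all members were called. This share does not set them apart from probe sets in general. With a minimum mean intensity of 64 the F test called 139 of the 150 members and 98.7% of the 10735 probe sets kept. Of the members 14 were called in 0 of the 3 single steps (26.8% of all probe sets), 43 in 1 (27.6% of all), 67 in 2 (23.5% of all) and 26 in 3 (22.2% of all), and 73 had calls in both directions (25.1% of all). Among the other 596 abundant probe sets these counts were 0, 82, 226 and 288. The 9 members that the F test did not call had unadjusted p-values of 0.054 or more. Among those 9, 2 have 1 gene in the annotation, *AT5G02240* and the plastid gene *ndhA*, the latter named after its values were seen. In tim17-1 *AT5G02240* read 3812, 3844 and 3688 at 0 h, 3944, 3703 and 3681 at 48 h S, 3653, 3133 and 3216 at 6 h SL, and 3119.7, 3581 and 3712 at 24 h SL. The 6 h SL arrays lay below all arrays of 0 h and 48 h S, and the other pairs of stages overlapped. The range was 0.18 (limma F test, adjusted p = 0.0619), the smallest in tim17-1 among members with 1 gene. *ndhA*, a subunit of the plastid NDH complex, had a wider range of 0.56 and more scatter between arrays, with 1330.1 to 1505 at 48 h S and 1763 to 2371 at 24 h SL (adjusted p = 0.0635).

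**Figure D2:**
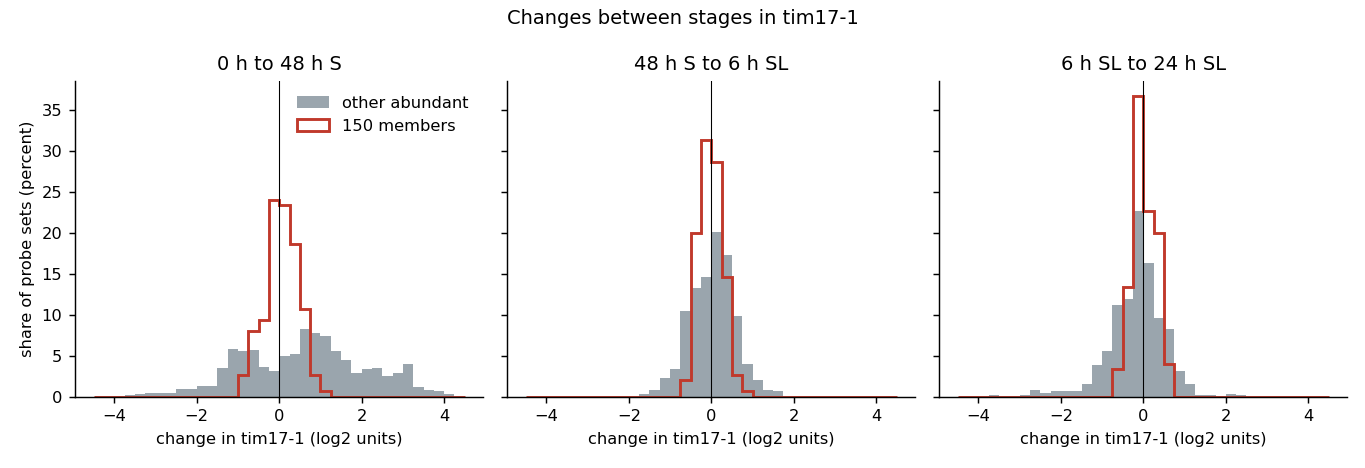
Change of each abundant probe set between successive tim17-1 stages, as the difference of mean log2(intensity + 16) (horizontal axis), with the share of the set in percent on the vertical axis, in red for the 150 members and in grey for the other 596. Members pile up near 0 in all 3 panels, and the other abundant probe sets spread widest from 0 h to 48 h S, where their median size of change was 1.10 against 0.27 in the members.

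The largest step of germination for the other abundant transcripts, from dry to stratified seed, was among the members about as large as for the median probe set. On the deposited values 102 members were called from 0 h to 48 h S in tim17-1, where 59.7% of all probe sets were called. Of these 61 rose, where 26.8% of all probe sets did, and 41 fell, where 32.9% did. Their median size of change was 0.27 log2 units, against 1.10 in the other abundant probe sets and 0.26 over all probe sets. From 48 h S to 6 h SL, 73 members (48.7%) were called, where 72.7% of the other abundant and 38.2% of all probe sets were. Their median size was 0.18 over the 150 members, and 34 rose (18.9% of all probe sets) and 39 fell (19.2% of all). From 6 h SL to 24 h SL, 80 members (53.3%) were called, where 68.5% of the other abundant and 43.2% of all probe sets were. Here the median size over the 150 members was 0.19, and 40 rose (20.7% of all probe sets) and 40 fell (22.5% of all). The histograms of these steps show the members in a narrow peak and the other abundant probe sets in broad flanks. In WT, a description only since the choice used these steps, the step had the same sign in 60 of the 61 that rose and 40 of the 41 that fell from 0 h to 48 h S, in 34 of 34 and 35 of 39 at the next step, and in 37 of 40 and 39 of 40 at the last.

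Whether a member counts as rising or falling at the first step depended on the scaling between arrays. Under cyclic loess, which levels the arrays by assuming that most probe sets keep their level, 135 members were called from 0 h to 48 h S (65.5% of all probe sets were), 2 higher (36.9% of all) and 133 lower (28.6% of all), with a member median of -0.72 against an all-probe-set median of 0.01. Scaling to the hybridisation spikes, chosen after seeing the data, gave the opposite direction. It called 134 members (93.1% of all probe sets), 133 higher (78.7% of all) and 1 lower (14.4% of all), with a member median of 0.71, while the median of all probe sets moved to 0.63. Of the 61 members that rose on the deposited values 2 also rose under cyclic loess, and of the 41 that fell 1, *AT2G14910*, also fell under spike scaling. At the later steps no member called on the deposited values was called in the opposite direction. All 34 members that rose from 48 h S to 6 h SL and all 40 that rose from 6 h SL to 24 h SL did so under all 3 scalings. The member medians as deposited, under cyclic loess and under spike scaling were -0.01, 0.01 and 0.22, then -0.01, 0.21 and 0.20. Neither other scaling lowered these medians, so a rise could hardly be lost. A rise given below as called under all 3 scalings is therefore weak evidence that it does not depend on the scaling. Of the 39 and 40 that fell, 38 and 12 also fell under cyclic loess, and 5 and 6 under spike scaling. The membership changed as well. The rule applied after cyclic loess shared 54 of its 150 with the members, and after spike scaling 28. The members are thus steady on the deposited scale, and the plot of their median under 3 scalings shows that the other scalings place dry seed above or below all later stages.

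**Figure D3:**
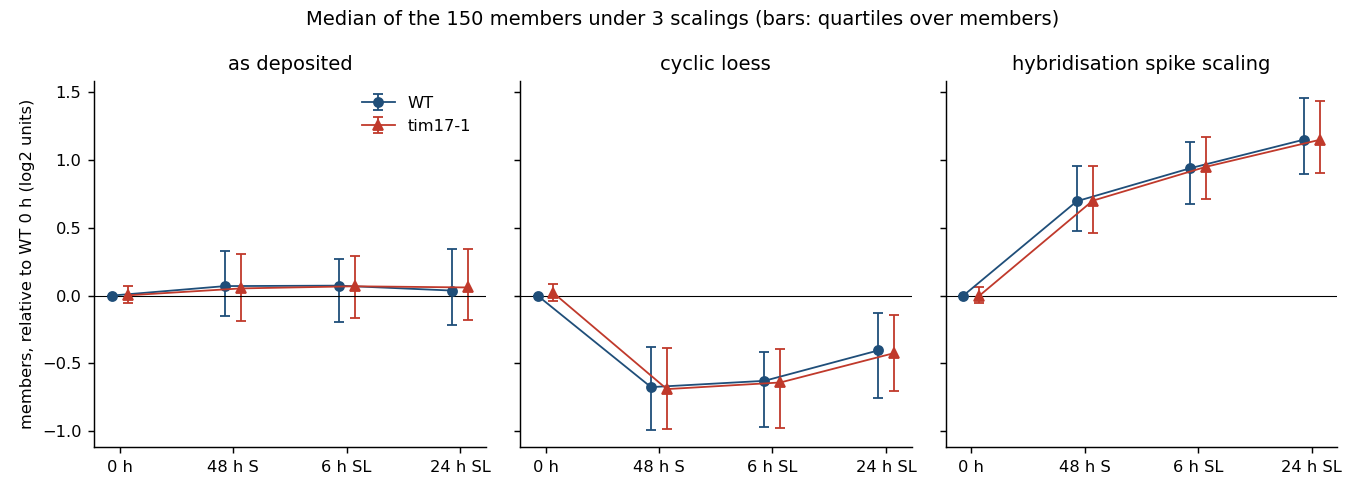
Median over the 150 members of the change from WT 0 h in log2(intensity + 16) at each stage (horizontal axis), for WT (circles) and tim17-1 (triangles), on the deposited values, after cyclic loess and after scaling to the hybridisation spikes, with bars from the lower to the upper quartile of members. The median stays within 0.07 of WT 0 h as deposited, lies at -0.40 to -0.69 at the 3 later stages of both genotypes under cyclic loess, and there at 0.70 to 1.15 under spike scaling.

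Directions given for single genes below are those of the deposited values. The gene groups were put together from the members' known functions after their values were seen, so their sizes are no measure of enrichment.

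Complex I, the NADH dehydrogenase at the entry of the mitochondrial respiratory chain, was represented by at least 5 members. The 5 grouped here are all encoded in the nucleus, with WT ranges of 0.30 to 0.65 and tim17-1 ranges of 0.21 to 0.73. In tim17-1 the 17.2 kDa-type subunit gene *AT3G03100* read 4466, 4850.1 and 5139 at 0 h, 4798, 4518 and 5038 at 48 h S, 5291, 4709.6 and 4955 at 6 h SL, and 4664, 4168 and 4132 at 24 h SL. All stages overlapped but 6 h SL and 24 h SL. The difference between these 2, -0.21 ± 0.07 log2 units, was called on the deposited values (limma, adjusted p = 0.0191) and was 0.01 under cyclic loess. *AT3G03070* was called over the 3 steps (limma F test, adjusted p = 0.00258) but in no single one, with a range of 0.29. These 2 genes lie close together on chromosome 3, with 2 genes between them.

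The other 3 complex I genes moved more, and in different ways. *AT1G76200* read 2712, 3017 and 3099 at 0 h, 2469.8, 2620.4 and 2496 at 48 h S, 3071, 3008 and 2998 at 6 h SL, and 4179, 4103 and 4329 at 24 h SL in tim17-1. Every 24 h SL array lay above every earlier one, and it rose from 6 h SL to 24 h SL by 0.47 ± 0.06 (limma, adjusted p = 1.26e-06). *AT2G02510* rose at both later steps, by 0.32 ± 0.05 (adjusted p = 3.15e-05) and 0.29 ± 0.05 (limma, adjusted p = 6.84e-05). *AT5G11770*, the PSST-type iron-sulfur subunit, named after its values were seen, fell from 48 h S to 6 h SL by 0.33 log2 units (adjusted p = 0.00102) and then rose by 0.27 ± 0.07 (limma, adjusted p = 0.00445), and that fall was not called under spike scaling (-0.10). From 6 h SL to 24 h SL these 3 genes thus rose, and *AT3G03070* changed by 0.09 without a call. The fall of *AT3G03100* at that step was not seen under cyclic loess. At the earlier steps the 5 genes had no common direction.

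Members with products in the mitochondrial matrix differed in pattern. *PRXIIF*, the mitochondrial peroxiredoxin that removes peroxides, read 1539, 1412 and 1836 at 0 h, 1108, 1176 and 1242 at 48 h S, 1658, 1734 and 1784 at 6 h SL, and 1493, 1631 and 1511 at 24 h SL in WT and 1772, 1884 and 1950.2 at 0 h, 1249, 1323 and 1312 at 48 h S, 1784, 1717 and 1629 at 6 h SL, and 1472, 1544 and 1893 at 24 h SL in tim17-1. The 48 h S arrays lay below all others in both genotypes. In tim17-1 it rose from 48 h S to 6 h SL by 0.40 ± 0.09 (limma, adjusted p = 0.00128), after a change of -0.52 ± 0.09 from 0 h (adjusted p = 4.21e-05) that was -1.11 under cyclic loess and 0.13 under spike scaling. *IDH-V*, a catalytic subunit of the isocitrate dehydrogenase of the tricarboxylic acid cycle, read 1179, 1268 and 1055 in tim17-1 at 0 h and 1814, 1849 and 1728 at 48 h S, with no overlap. That rise of 0.62 ± 0.07 (limma, adjusted p = 4.37e-07) shrank to 0.04 under cyclic loess, where it was not called, and was 1.27 under spike scaling. *AT2G35120*, an H protein of the glycine cleavage system, fell from 6 h SL to 24 h SL by 0.31 log2 units (limma, adjusted p = 6.17e-04), a call lost under both other scalings (-0.09 and -0.10).

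The glyoxylate cycle turns the products of fatty acid breakdown in peroxisomes into precursors of sugar, which oilseed seedlings need before they photosynthesise. Its isocitrate lyase gene *ICL* was a member, with a WT range of 0.64 and one of the widest tim17-1 ranges (0.93). Its WT intensities were 16923, 17893 and 17662 at 0 h, 21425, 21607 and 22160.5 at 48 h S, 19939, 20882 and 20929 at 6 h SL, and 24089, 30578 and 27719 at 24 h SL. In tim17-1 they were 16394, 16173 and 16179 at 0 h, 23380.2, 23156 and 24461 at 48 h S, 20592, 20424 and 20968 at 6 h SL, and 32185, 25872 and 35459.9 at 24 h SL. Dry seed was lowest and 24 h SL highest in both genotypes, with no overlap between these stages. In tim17-1 *ICL* rose from 6 h SL to 24 h SL by 0.58 ± 0.08 (limma, adjusted p = 1.30e-05), which was called under all 3 scalings, whereas its change from 0 h to 48 h S of 0.54 ± 0.08 was -1.12 under cyclic loess and 1.19 under spike scaling. The other peroxisomal member, *SDRB*, read 1328, 1333 and 1299 at 0 h, 1187, 1105 and 1129 at 48 h S, 1132, 1358 and 1344 at 6 h SL, and 960.4, 1208 and 1053 at 24 h SL in tim17-1, and its 6 h SL and 24 h SL arrays overlapped. It fell from 6 h SL to 24 h SL by 0.25 log2 units (limma, adjusted p = 0.0242), a call lost under cyclic loess and spike scaling (both -0.04).

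The vacuolar ATPase acidifies vacuoles and secretory compartments with energy from ATP, and 2 of its subunits were members. Subunit H, encoded by *AT3G42050*, read 1652, 1374 and 1478 at 0 h, 2007, 2098 and 2239 at 48 h S, 1777, 1852 and 1839 at 6 h SL, and 2072, 2486 and 2161 at 24 h SL in WT and 1524, 1539 and 1490.1 at 0 h, 2259, 2233 and 2321 at 48 h S, 1659, 1712 and 1732 at 6 h SL, and 2394, 2299 and 2435 at 24 h SL in tim17-1. The values alternated, with 48 h S and 24 h SL above 0 h and 6 h SL in both genotypes and no overlap in tim17-1 between neighbouring stages. In tim17-1 the change from 48 h S to 6 h SL was -0.41 ± 0.06 (adjusted p = 2.21e-05) and the rise to 24 h SL 0.48 ± 0.06 (limma, adjusted p = 2.92e-06). The first of these was not called under spike scaling (-0.18), and the rise was called under all 3 scalings. Subunit e, *AT5G55290*, had a smaller tim17-1 range of 0.40, and it rose from 48 h S to 6 h SL by 0.24 ± 0.08 (limma, adjusted p = 0.0178), under all 3 scalings.

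Members with products in membranes and proteolysis included 2 of the 5 members that fell from 48 h S to 6 h SL under all 3 scalings. *AT1G47530*, a MATE family transporter, read 1866, 2009.6 and 1953 in tim17-1 at 48 h S and 1254, 1181 and 1195 at 6 h SL. The arrays did not overlap, and the fall of 0.68 log2 units (limma, adjusted p = 1.81e-06) was called under all 3 scalings. *AT1G16180*, of the serinc family of membrane proteins, fell at the same step by 0.53 (limma, adjusted p = 3.50e-06), also under all 3 scalings, and both genes rose again to 24 h SL, by 0.43 ± 0.08 and 0.31 ± 0.07 (limma, adjusted p = 1.91e-04 and 8.31e-04). *AT3G30390*, an amino acid transporter family gene, had one of the 8 smallest tim17-1 ranges (0.34). So did *AT1G02305*, a cathepsin B-like protease (0.27), which rose to 24 h SL by 0.27 ± 0.06 (limma, adjusted p = 6.21e-04).

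*AT1G50380*, a prolyl oligopeptidase family gene, had the widest tim17-1 range of the members with 1 gene. Its WT intensities at 0 h were 1550.5, 2084 and 2436, a wide scatter, and those in tim17-1 were 2321, 2731 and 2789. By 24 h SL they were 1281, 1257 and 1197 in WT and 1239, 1328 and 1093 in tim17-1, so the lowest dry seed array lay above all 24 h SL arrays. The range was 0.67 in WT and 1.09 in tim17-1, where the change from 0 h to 48 h S was -0.65 ± 0.12 (limma, adjusted p = 7.01e-05), with -1.24 under cyclic loess and -0.0026 under spike scaling. *AT5G18900*, a prolyl 4-hydroxylase, which modifies proline residues of secreted proteins, read 1568, 1604 and 1552 at 0 h, 948, 929 and 828 at 48 h S, 1388, 1371 and 1418 at 6 h SL, and 1238, 1325 and 1331 at 24 h SL in tim17-1. Its 48 h S arrays lay below all others, and it rose from 48 h S to 6 h SL by 0.62 ± 0.06 (limma, adjusted p = 1.78e-07) under all 3 scalings. *AT4G14615*, for which no role is given here, had the same dip, with 1048, 1076 and 1099.6 at 48 h S and 1966, 1562 and 1686 at 6 h SL and a rise of 0.68 ± 0.07 (limma, adjusted p = 1.27e-07).

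For handling of messenger RNA, 2 members belong to the CCR4-NOT complex, which shortens poly(A) tails: the scaffold gene *AT1G02080* (NOT1) and *AT5G10960* of the CAF1 deadenylase family. *AT5G10960* read 1212, 1497 and 1348 at 0 h, 1426, 1533 and 1519 at 48 h S, 1926, 2083 and 2143 at 6 h SL, and 1968, 2097 and 2029 at 24 h SL in tim17-1. Both stages in the light lay above both earlier stages, and the rise from 48 h S to 6 h SL was 0.45 ± 0.07 (limma, adjusted p = 1.57e-05) under all 3 scalings. *AT1G02080* had its highest tim17-1 values in dry seed, 1693, 1860.2 and 1735, and its lowest at 6 h SL, 1115, 1263 and 1159.7. The change from 0 h to 48 h S was -0.42 ± 0.05 (limma, adjusted p = 7.17e-07), which was -0.95 under cyclic loess and 0.23 under spike scaling. *AT3G14100*, an oligouridylate-binding protein, fell by 0.42 log2 units from 6 h SL to 24 h SL (limma, adjusted p = 1.20e-05), a call that spike scaling removed (-0.21). The RNA-binding protein gene *RBP45B* and the splicing-associated *MAC3B*, both named after their values were seen, had tim17-1 ranges of 0.44 and 0.40, with no call after 48 h S.

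In translation and protein targeting, *AT2G04520* of the eIF1A family overlapped between the first 3 tim17-1 stages and was then lower. Its intensities were 8696, 8897 and 8255 at 0 h, 8904, 8565 and 8398 at 48 h S, 8846, 8552 and 8075 at 6 h SL, and 5689.9, 5854 and 4757 at 24 h SL. All 24 h SL arrays lay below all earlier ones, and the fall of 0.65 log2 units (limma, adjusted p = 4.29e-08) was called under all 3 scalings. *AT1G48900*, encoding the SRP54 subunit of the signal recognition particle that brings ribosomes to the endoplasmic reticulum, read 1197, 1176 and 1193 at 0 h, 1856, 1823 and 1768 at 48 h S, 1409, 1445 and 1389 at 6 h SL, and 1260.0, 1520.3 and 1379.7 at 24 h SL. It was highest at 48 h S without overlap, with a change from 0 h of 0.60 ± 0.05 (limma, adjusted p = 1.39e-08) that was 0.05 and not called under cyclic loess, and 1.25 under spike scaling.

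Among genes of modifier conjugation, *UBC28*, a ubiquitin-conjugating enzyme, was the single member from a list of 33 measured ubiquitin and proteasome genes, of which 1 was abundant in every WT group. Its WT intensities were 8648, 8271 and 8606 at 0 h, 9472, 9855 and 9073 at 48 h S, 7283, 9107 and 9178 at 6 h SL, and 10105, 11918 and 10908 at 24 h SL, and those in tim17-1 were 8612, 8079.8 and 7765 at 0 h, 9641, 9879 and 10315 at 48 h S, 8655, 8005 and 8025 at 6 h SL, and 12973, 11886 and 11123 at 24 h SL. In tim17-1 the 24 h SL arrays lay above all others, and *UBC28* rose to 24 h SL by 0.54 ± 0.08 (limma, adjusted p = 1.39e-05) under all 3 scalings. *AT1G27530*, with the smallest WT range among members with 1 gene, read 3042, 3219.7 and 3233 at 0 h, 2978, 2706 and 2810.5 at 48 h S, 3143, 3312 and 3325 at 6 h SL, and 3179, 3018 and 3379.8 at 24 h SL in tim17-1. The range was 0.20, and a rise from 48 h S to 6 h SL of 0.20 ± 0.06 was called (limma, adjusted p = 0.00871). *SAMDC*, for polyamine synthesis and named after its values were seen, rose to 24 h SL by 0.46 ± 0.06 (limma, adjusted p = 1.68e-06).

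Of 69 measured plastid-genome probe sets 20 were abundant in every WT group, and 6 of these 20 (30%) were members, against 20.1% of all abundant probe sets. The other 14 had WT ranges of 1.01 to 3.13. Plastid members scattered more between replicate arrays, with a median residual standard deviation of 0.15 log2 units (0.08 to 0.27) against 0.08 (0.06 to 0.19) in the 51 nuclear members with 1 gene. *petB*, which encodes cytochrome b6 of the photosynthetic electron chain, read 2617, 2595 and 2528 at 0 h, 1799.8, 1720.5 and 1520.0 at 48 h S, 1756, 1681 and 1792 at 6 h SL, and 2781, 2791 and 2316 at 24 h SL in WT. In tim17-1 it read 1919, 2239 and 2138 at 0 h, 1271, 1225 and 1478 at 48 h S, 1482, 1468 and 1599 at 6 h SL, and 2298, 2461 and 2327 at 24 h SL. Both genotypes were high in dry seed and at 24 h SL and low between, and in tim17-1 *petB* rose from 6 h SL to 24 h SL by 0.63 ± 0.08 (limma, adjusted p = 2.53e-06) under all 3 scalings.

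The plastid protease gene *clpP* went the other way, with 10619, 11503 and 12997 at 6 h SL in tim17-1 and 9127, 7697 and 5155 at 24 h SL, without overlap and with wide scatter at the later stage. It fell by 0.71 log2 units (limma, adjusted p = 4.34e-04), also under all 3 scalings. The NDH subunit gene *ndhC* had its highest tim17-1 arrays at 48 h S (2744, 2804 and 3008) against 1776, 1774 and 1794 in dry seed. This difference of 0.67 ± 0.10 (limma, adjusted p = 7.90e-06) was -0.06 and not called under cyclic loess, and 1.32 under spike scaling. Another NDH gene, *ndhI*, named after its values were seen, rose at both later steps, by 0.36 ± 0.07 and 0.35 ± 0.07 (limma, adjusted p = 2.60e-04 and 2.34e-04). The ribosomal protein gene *rpl32* read 3085, 2602 and 2028 at 48 h S and 4353, 4216 and 4079 at 6 h SL, with no overlap. Its rise of 0.73 ± 0.21 (limma, adjusted p = 0.00976) was not called without tim17-1 48 h S replicate 3, where it was 0.57 (adjusted p = 0.0573).

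**Figure D4:**
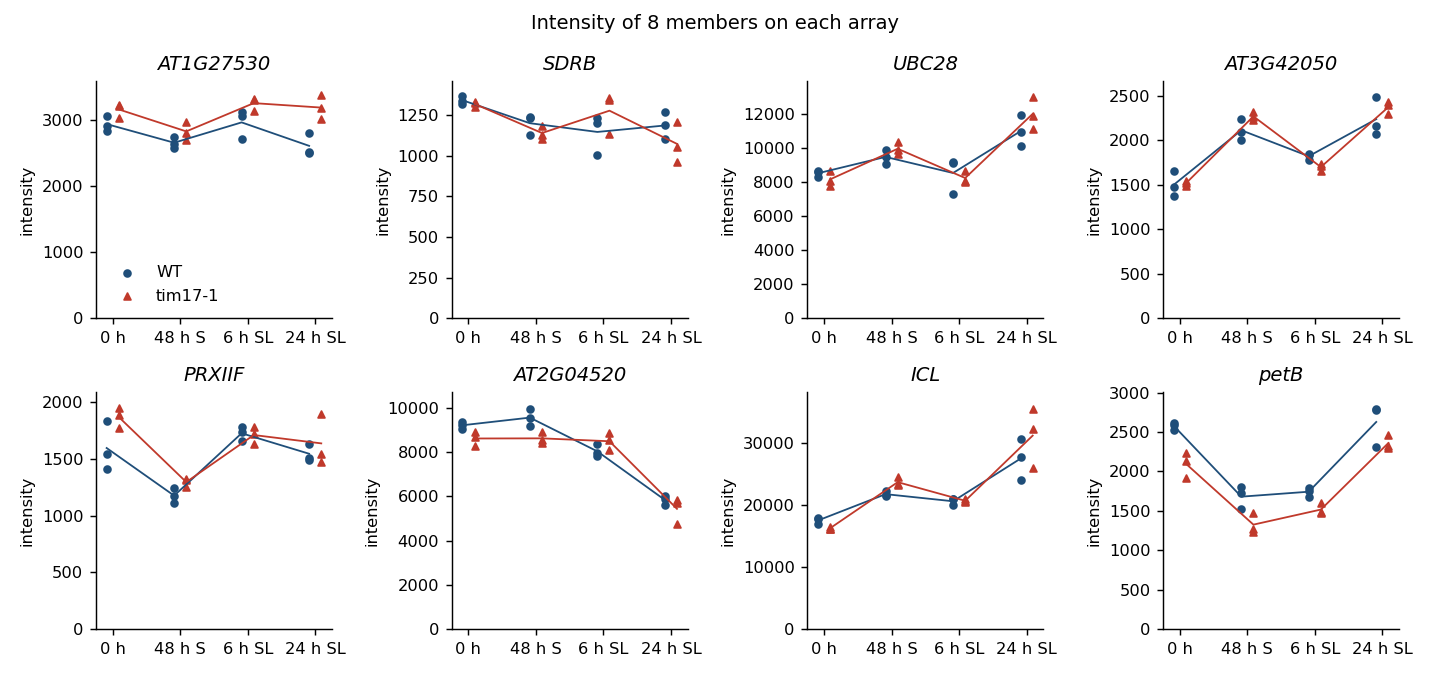
Intensity on each array (vertical axis, linear, from 0) at the 4 stages (horizontal axis) for 8 members with 1 gene, WT as circles and tim17-1 as triangles, with lines through the means of 3 arrays. *SDRB* and *AT1G27530* stay nearly level, *AT2G04520* is lowest at 24 h SL, *ICL* is highest there, and *petB* and *PRXIIF* are low at 48 h S in both genotypes.

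Of the members with no role given here, *AT2G14910* read 3625, 3862 and 3586 at 0 h, 1921, 1864 and 2042 at 48 h S, 2596, 2528 and 2546 at 6 h SL, and 3111, 3259 and 3195 at 24 h SL in tim17-1. Dry seed was highest and 48 h S lowest, without overlap, and its fall of 0.92 log2 units from 0 h to 48 h S (limma, adjusted p = 9.92e-12) was called under all 3 scalings (-1.72 under cyclic loess and -0.27 under spike scaling). *AT2G43630* had a change of 0.62 ± 0.07 at that step (limma, adjusted p = 1.14e-07), which was -0.01 and not called under cyclic loess, and 1.27 under spike scaling. *AT5G24690* rose from 6 h SL to 24 h SL by 0.70 ± 0.08 (limma, adjusted p = 5.04e-07) under all 3 scalings. A second, weaker probe set of *AT5G24690* had ranges of 0.44 in WT and 0.56 in tim17-1, beside 0.49 and 0.70. The second probe set of *SDRB* had ranges of 0.24 and 0.18, beside 0.23 and 0.30, so both second probe sets also varied little. *AT2G14910* and *AT2G14880*, a SWIB domain gene, have 2 genes between them, although *AT2G14880* was highest at 6 h SL in both genotypes and *AT2G14910* was highest in tim17-1 dry seed.

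The remaining 15 members with 1 gene fall outside the rule for named genes and are given here so that every member with 1 gene is shown. Their tim17-1 ranges lay within the WT limit. They include *AT2G23070*, a casein kinase catalytic subunit with a tim17-1 range of 0.36, *AT1G61780* (0.39), *AT5G11500* (0.40), *PHOS32*, a universal stress protein family gene (0.36), *AT5G64400*, a twin cysteine protein of mitochondria (0.46), and *AT3G09735* (0.55). The pentatricopeptide repeat gene *AT1G02150* (range 0.43) and the NAD(P)-binding gene *AT5G58490* (0.42) both rose from 48 h S to 6 h SL, by 0.27 ± 0.05 and 0.42 ± 0.06 (limma, adjusted p = 2.55e-04 and 1.95e-05). *AT1G10590*, with a nucleic acid-binding fold, rose at that step by 0.40 ± 0.05 (limma, adjusted p = 1.35e-06). *AT3G12050*, related to the HSP90 co-chaperone Aha1, differed between 48 h S and 0 h by -0.44 ± 0.07 (limma, adjusted p = 1.04e-05), with -0.99 under cyclic loess and 0.21 under spike scaling. The ranges of *AT1G36980*, *AT2G27730*, *AT1G48440*, *AT3G10770* and *AT4G21110* in tim17-1 were 0.55, 0.56, 0.71, 0.61 and 0.56.

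The comparison of genotypes at each stage asked whether the mutant shifted these transcripts. The choice used the same WT arrays but not this contrast. At 0 h, 2 members were called by limma at an adjusted p under 0.05, both lower in tim17-1, where 3.65% of all probe sets were called (1.32% higher and 2.33% lower). At 48 h S 2 were called, both lower, where 1.23% of all were (0.361% higher and 0.87% lower). At 6 h SL 2 were called, both lower, where 1.28% of all were (0.51% higher and 0.769% lower). At 24 h SL 3 were called, all higher, where 4.32% of all were (1.59% higher and 2.73% lower). Averaged over the stages 6 were called, 4 higher and 2 lower, where 4.19% of all were (1.11% higher and 3.08% lower). These shares, 1.33%, 1.33%, 1.33%, 2% and 4% of the members, are near or below the background and are no result about the members. Without an adjustment, p was under 0.05 in 22 members at 0 h (14.4% of all probe sets), 32 at 48 h S (12.2% of all), 17 at 6 h SL (8.08% of all) and 27 at 24 h SL (13.6% of all). All 3 tim17-1 arrays lay above all WT arrays in 14 members at 0 h (6.28% of all probe sets) and below in 13 (6.41% of all). At 48 h S these counts were 20 above (8.64% of all) and 23 below (9.99% of all). At 6 h SL they were 13 above (6.72% of all) and 14 below (8.22% of all), and at 24 h SL 16 above (8.58% of all) and 3 below (7.83% of all). Absolute differences were under 0.25 log2 units in 146, 143, 150 and 145 members, and the largest were 0.43, 0.65, 0.23 and 0.40.

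*petB* was the one member called lower at 2 stages. At 0 h WT read 2617, 2595 and 2528 and tim17-1 1919, 2239 and 2138, and at 48 h S WT read 1799.8, 1720.5 and 1520.0 and tim17-1 1271, 1225 and 1478, with no overlap at either stage. The differences were -0.30 ± 0.08 (adjusted p = 0.048) and -0.34 ± 0.08 (limma, adjusted p = 0.0481). Both lie close to the threshold, and leaving out 1 array ended the call for 17 and 18 of 24 arrays, with adjusted p up to 0.141 and 0.22. Averaged over the stages the difference was -0.25 ± 0.04 (adjusted p = 0.00139), and that call held under every alternative run, with adjusted p of 0.000343 to 0.00505. The average of the other plastid members did not pass, at -0.31 ± 0.11 for *rpl32*, -0.25 ± 0.09 for *ndhA*, -0.13 ± 0.05 for *ndhC*, -0.10 ± 0.03 for *ndhI* and -0.01 ± 0.07 for *clpP*.

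*AT1G27530* was higher in tim17-1 at 24 h SL, with 2505, 2521 and 2811 in WT and 3179, 3018 and 3379.8 in tim17-1. The arrays did not overlap, the difference was 0.29 ± 0.06 (limma, adjusted p = 0.00566), and the average over stages was 0.15 ± 0.03 (adjusted p = 0.00413). *AT1G63770*, an M1 family aminopeptidase, read 7137, 6519 and 7257 and 8289, 7972 and 7782 at 24 h SL, again apart. Its difference was 0.20 ± 0.05 (limma, adjusted p = 0.0173). The call was lost when replicate 2 of WT at that stage was left out (adjusted p = 0.0903), and also when replicate 1 of tim17-1 was (adjusted p = 0.099). Over the stages *AT1G63770* was higher by 0.12 ± 0.02 (adjusted p = 0.00476) and *AT1G02305* by 0.11 ± 0.03 (limma, adjusted p = 0.0299), the latter lost without any of 8 arrays, with adjusted p up to 0.0593.

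The complex I gene *AT2G02510* was lower in tim17-1 at 48 h S, with 1499, 1463 and 1566 in WT and 1293, 1235 and 1375 in tim17-1. The groups did not overlap and differed by -0.21 ± 0.05 (limma, adjusted p = 0.0446), a call lost without any of 16 arrays, with adjusted p up to 0.211. The CCR4-NOT gene *AT1G02080* read 1395, 1326 and 1424 in WT and 1115, 1263 and 1159.7 in tim17-1 at 6 h SL. It differed by -0.23 ± 0.05 (limma, adjusted p = 0.0353), lost without any of 5 arrays, with adjusted p up to 0.193. The remaining called members, 3 probe sets, are not listed in the annotation. Their calls were -0.43 at 0 h in 1, -0.23 at 6 h SL and -0.14 over the stages in another, and 0.39 at 24 h SL and 0.17 over the stages in the last. Fitted with the arrays of 1 stage alone, no member was called at 0 h, 6 h SL or 24 h SL and 1 was at 48 h S. That member was higher in tim17-1, whereas the 2 called at 48 h S in the fit of all 24 arrays were lower. Neither of those 2 calls was kept. The fits of 1 stage called 0.171% of all probe sets at 0 h, 0.783% at 48 h S, 0% at 6 h SL and 0.0176% at 24 h SL. They had little power for any probe set, so the loss is no result about the members.

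**Figure D5:**
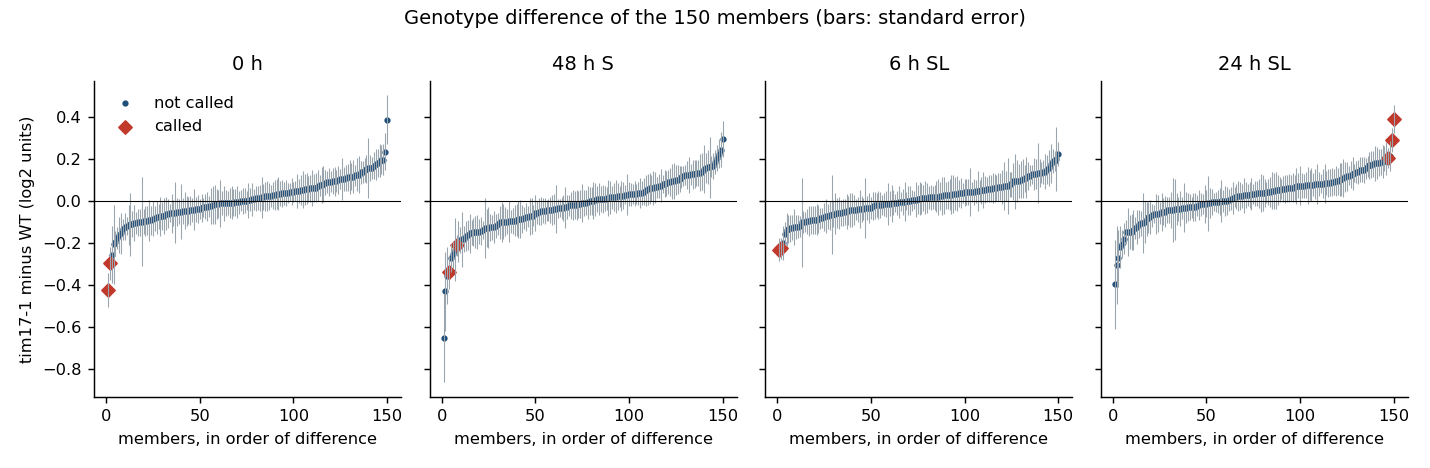
Difference of tim17-1 minus WT in log2(intensity + 16) for each of the 150 members (vertical axis), in order of the difference within each stage (horizontal axis), with bars of 1 standard error and red diamonds for members called by limma. Called members are 2, 2, 2 and 3 at the 4 stages, and differences stay between -0.65 and 0.39 log2 units.

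Genes often used as references for quantitative PCR were not among the members as far as they could be looked up. Of 30 such genes listed, 15 had a probe set naming that gene alone, 2 of these were abundant in every WT group, and 0 were members. Whether the rest of the list lies among the 86 members not listed in the annotation or the 7 matching several genes was not checked. The WT ranges of the 15 ran from 0.08 to 4.79 log2 units and their tim17-1 ranges from 0.06 to 4.62. The smallest belonged to *AT4G34270*, a TIP41-like gene, with a WT range of 0.08 and a tim17-1 range of 0.06, at intensities of 409.6 to 567 on the 24 arrays, under the limit of 1000. *AT5G46630*, a clathrin adaptor subunit, had ranges of 0.39 and 0.34 and missed the limit with a WT dry seed mean of 884. The tubulin gene *TUB6* had ranges of 4.79 and 4.62, and *GAPC2*, a glycolytic glyceraldehyde-3-phosphate dehydrogenase, which was abundant throughout, had 1.79 and 1.68. Lists of genes were matched by gene symbols and synonyms, while 11933 of the 13513 probe sets with 1 gene carry only a locus code. They missed members grouped by function above, such as *AT3G42050* and *AT2G04520*, and also *RBP45B* and *MAC3B*, which have symbols. A count of 0 members in a list therefore does not mean that no member has that function. Only genes abundant in every WT group could be members. Of the ubiquitin and proteasome list 33 genes were measured, 1 was abundant and 1 was a member. Of mitochondrial energy and carriers 21 were measured and 5 abundant, with 2 members (*ICL* and *IDH-V*). The match by symbol put *ICL* in this list, although it is grouped with peroxisomes above. Of redox genes 35 were measured and 3 abundant, with 1 member (*PRXIIF*). Of seed maturation genes 23 were measured and 4 abundant, with 0 members. The other 11 lists, on ribosomal proteins, translation factors, the cytoskeleton, chaperones, vesicle traffic, vacuolar proton pumps, glycolysis, RNA binding, chromatin, signalling enzymes and photosynthesis, held 1 to 21 measured and 0 to 2 abundant genes each, and 0 members.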

How the data were processed

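Each sample was 80 mg of seed, and 400 ng of its RNA was labelled with biotin, per the labels' protocols. The authors deposited linear intensity values for 24 arrays. MAS5, RMA and Partek are named, per the submitters' processing notes. Which of them made these values, and the scaling between arrays, are not given in the sources used here. No detection call was used. The array number, 3 per group, limits the precision. All 24 columns were used. The 64 control probe sets of 22810 entered no test.

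Members and gene lists were chosen with earlier results of these data known. Values were taken as log2(intensity + 16), where the offset shrinks the changes of dim probe sets. For 8 groups the means were fitted over 24 arrays (16 residual degrees of freedom), with empirical Bayes moderation and Benjamini-Hochberg adjustment over 22746 probe sets, and all adjusted p-values are from this fit unless an alternative is named. With 3 arrays per group the lowest exact permutation p is 0.1, so no such test was run. Errors after ± are standard errors from limma, in log2 units, with n = 3 arrays per group. The software was R 4.3.3, limma 3.58.1, pandas 2.3.3, numpy 2.4.6 and, for figures, Python 3.11.15 and matplotlib 3.10.9.

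Probe sets were named from the platform's annotation, with symbols updated from a RefSeq gene list of assembly TAIR10.1. Of all probe sets, 13513 had 1 gene, 503 several and 8730 were not listed. The text names, among members with 1 gene, the 5 of smallest WT range, the 3 on either side of the limit, the 8 smallest and 10 largest tim17-1 ranges, up to 4 called members per direction in each contrast, and members of gene lists. Exceptions are marked. Replicate numbers did not pair the arrays: deviations from the group means correlated at -0.26 to 0.09 over 21 pairs of same-numbered groups (median -0.02), and 0 pairs exceeded 0.1. Alternatives were cyclic loess, log2(intensity + 1), a minimum mean of 64, array weights, a replicate block, fits of fewer groups, leaving out each array, floors of 500 and 2000 in the choice of members, and hybridisation spike scaling. A search for words in promoters was not run.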

Additional observations from a re-analysis of the deposited data

How the results depend on the processing

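The counts of members called over the tim17-1 stages and in each step stayed within 1.5 times of the reported ones under every alternative run (leaving out each array gave 138 to 142, 94 to 103, 64 to 76 and 70 to 84), but their directions from 0 h to 48 h S turned with the scaling, as given above. Array weights called 144 over the stages. Hybridisation spike scaling was chosen after seeing the data. The membership moved too: 28 members were shared with the rule after spike scaling, 54 after cyclic loess, 80 with an intensity limit of 500 and 66 with 2000, against 144 to 150 without 1 WT array. The few genotype calls were unstable. Fits of 1 stage alone called few probe sets of any kind, as given above. At 0 h the count of 2 became 1 under cyclic loess, spike scaling and array weights and 0 in the arrays of that stage alone (1 to 4 without 1 array). At 48 h S it became 0 under cyclic loess, log2(intensity + 1) and spike scaling, and 1 with the minimum mean of 64 (0 to 2 without 1 array). In that stage alone it was 1, a member higher in tim17-1 and so neither of the 2 reported. It became 29 with array weights, where 18.1% of all probe sets were called. There weights of 0.222 to 5.23 were given to the arrays and the largest went to tim17-1 48 h S replicate 1. At 6 h SL it became 0 under log2(intensity + 1), spike scaling, the minimum mean and that stage alone, and 5 with array weights (0 to 3 without 1 array). At 24 h SL the 3 became 1 under spike scaling and 0 in that stage alone (2 to 6 without 1 array), and the 6 averaged over stages became 1 under spike scaling (5 to 12 without 1 array, the highest without tim17-1 24 h SL replicate 2). With the replicate number as a block, though the numbers do not pair the arrays, the counts were 140 over the stages, 101, 71 and 81 for the steps, 2, 1, 2 and 3 for the genotypes and 6 for their average.

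The changes between stages counted here are the 24 that were named as the largest called per direction in a step. All 24 kept their call with log2(intensity + 1), the minimum mean, the replicate block and the tim17-1 arrays alone, 23 did with array weights, 19 under cyclic loess and 17 under spike scaling. Other changes given above are outside this count. Some of those from 0 h to 48 h S turned sign with the scaling, such as the changes of *ICL* and *PRXIIF*. The changes of *ndhC* and *AT2G43630* from 0 h to 48 h S were lost under cyclic loess, at -0.0602 and -0.0094 with adjusted p of 0.629 and 0.913, and under spike scaling were 1.32 and 1.27. Of 10 named genotype differences none changed sign, while 1 kept its call under spike scaling, that of *petB* averaged over the stages. The cause of these losses was not tested. No detection call was used, so nothing here bears on whether a weak probe set lies above background.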
